A study of Mus musculus with 3 samples.

Results

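The cells described here are those of the adult mouse jaw joint that carried RNA for Prg4, the gene for the joint lubricant lubricin. They were taken from the 13-week library of condylar cartilage cells as kept cells (at least 500 genes detected and at most 10% of UMIs from mitochondrial genes) with at least 2 Prg4 UMIs. A UMI is a molecular tag that marks 1 counted RNA molecule. Cells with 3 or more Col9a1 UMIs per 10000, with 5 or more Bglap plus Bglap2 UMIs per 10000, or with any UMI of Ptprc or Pecam1 were left out. These are genes of chondrocytes, osteoblasts, blood and endothelium, and the limits apply to these genes only. The rule found 206 cells among 8028 kept cells of the library (2.57%, 95% exact binomial interval 2.23% to 2.94%) and among 16589 kept cells of the series. The cells were chosen by these values, measured in the same library, so the level of Prg4 and of the 5 excluding genes is a description and not a result.

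The study surveyed the mandibular condyle, the jaw side of the temporomandibular joint, at E16.5, at P0 and at 13 weeks (13w). All groups were wild type (WT) C57BL6 mice with no treatment given in the labels. Condyles of 7 to 20 mice were pooled per age, digested with collagenase A and dispase 2, sorted as live cells (Calcein positive, DAPI negative) and made into 1 droplet library per age with 10x Genomics 3′ chemistry. The cells described are therefore 1 pool of adult mice with no replicate. No test was possible, and intervals cover counting error only.

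Lubricin is a large, heavily glycosylated protein that coats the surfaces of joints and keeps opposing cartilage from sticking and wearing. In limb joints it is made by the flattened chondrocytes of the superficial zone and by the lining cells of the synovium. The condyle of the jaw differs from limb cartilage in that its surface is a fibrous layer, with a layer of progenitor cells beneath it and chondrocytes deeper still.

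Each Prg4-positive cell held a median of 8083.5 UMIs (lowest 1815, highest 51106) and 2577 genes, against 11101 UMIs and 3015.5 genes in the other 7822 kept cells. The 206 cells gave 1901041 UMIs in all. Median mitochondrial share was 3.88% in them and 3.41% in the others. Across libraries 10 to 15 cell barcodes were shared per pair, and 1 Prg4-positive cell carried a barcode also seen at E16.5. The automatic doublet threshold of Scrublet marked 0 cells. The 572 cells with the highest scores, removed in an alternative only, included 8 Prg4-positive cells (3.88% of them, against 7.21% of the others).

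Prg4 itself was very unevenly spread over the 206 cells. They held 2897 of the library's 3241 Prg4 UMIs (89.4%). The lowest cells had 2 UMIs, the median cell 5 and the highest cell 293, and the top 20 cells held 48.9% of all Prg4 UMIs of the group. Summed over the cells, Prg4 was at 1524 UMIs per 1000000 UMIs (CPM), against 3.09 CPM in the other kept cells. Of 237 kept cells with at least 2 Prg4 UMIs, 31 were left out by the other limits. Of those 31, 12 exceeded the Col9a1 limit, 24 the Bglap limit and 5 had a blood or endothelial UMI, some of them more than 1 of these.

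Just inside and just outside the threshold the cells differed in some other genes, but not steadily in all the given markers. Among 135 cells with 1 Prg4 UMI and the same exclusions, 30.4% had a UMI of Thbs4 and 54.1% one of Abi3bp. Among the 49 members with exactly 2 UMIs these shares were 65.3% and 69.4%, and among the 157 members with 3 or more they were 72.6% and 84.1%. Over the same 3 sets Igfbp5 was in 60.0%, 75.5% and 77.1% of cells and Slurp1 in 5.93%, 8.16% and 11.5%. Mmp3 (35.6%, 42.9% and 35.7%) and Igfbp6 (94.1%, 100% and 98.1%) showed no steady rise. Median depth was 8728, 8104 and 8063 UMIs in the 3 sets, so depth moved little between them. RNA free in the droplets can also give a cell a Prg4 UMI. In 5 clusters led by blood or endothelial genes, with 435 cells and a median of 7663 UMIs, 4 cells had a Prg4 UMI (0.920%, 0.251% to 2.34%) and 1 had 2 or more, against 5.21% of all kept cells with a Prg4 UMI.

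The label of superficial cells came with 4 markers beside Prg4, and all 4 were higher in the Prg4-positive cells than in the other kept cells. These markers were chosen with earlier results of these data known, so their higher levels are a description and not support for the label. Igfbp6, an IGF binding protein that prefers IGF2, reached 2379 CPM against 555 CPM and was found in 98.5% of the cells against 87.2%. Igfbp5, another IGF binding protein, reached 2275 CPM against 265 CPM, in 76.7% of cells against 36.3%. Mmp3, the secreted matrix protease stromelysin 1, reached 298 CPM against 35.3 CPM, in 37.4% of cells against 14.4%. Slurp1, a small secreted protein of the Ly6 family known from skin, reached 421 CPM against 7.67 CPM but was found in only 10.7% of cells against 1.78%. In the 435 blood and endothelial cells the shares with a UMI were 21.8% for Igfbp6, 10.6% for Igfbp5, 2.07% for Mmp3 and 0.690% for Slurp1. The 4 markers were not high in all members. In cluster 1 of the members (46 cells, described further on) they summed to 1274 CPM, against 7387 CPM in the other members. In cells with 0 Prg4 UMIs and the same exclusions they summed to 1206 CPM. Position in the tissue was not measured here.

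The Slurp1 signal belonged to a few cells. Only 22 of the 206 cells had any Slurp1 UMI, and 10 cells with 10 or more UMIs held 95.5% of the 801 Slurp1 UMIs, the highest cell holding 379. A further 16 kept cells that were not members had 10 or more Slurp1 UMIs, 4 of them with 1 Prg4 UMI and 12 with none. Slurp1 thus marked neither most of the Prg4-positive cells nor them alone.

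**Figure D1:**
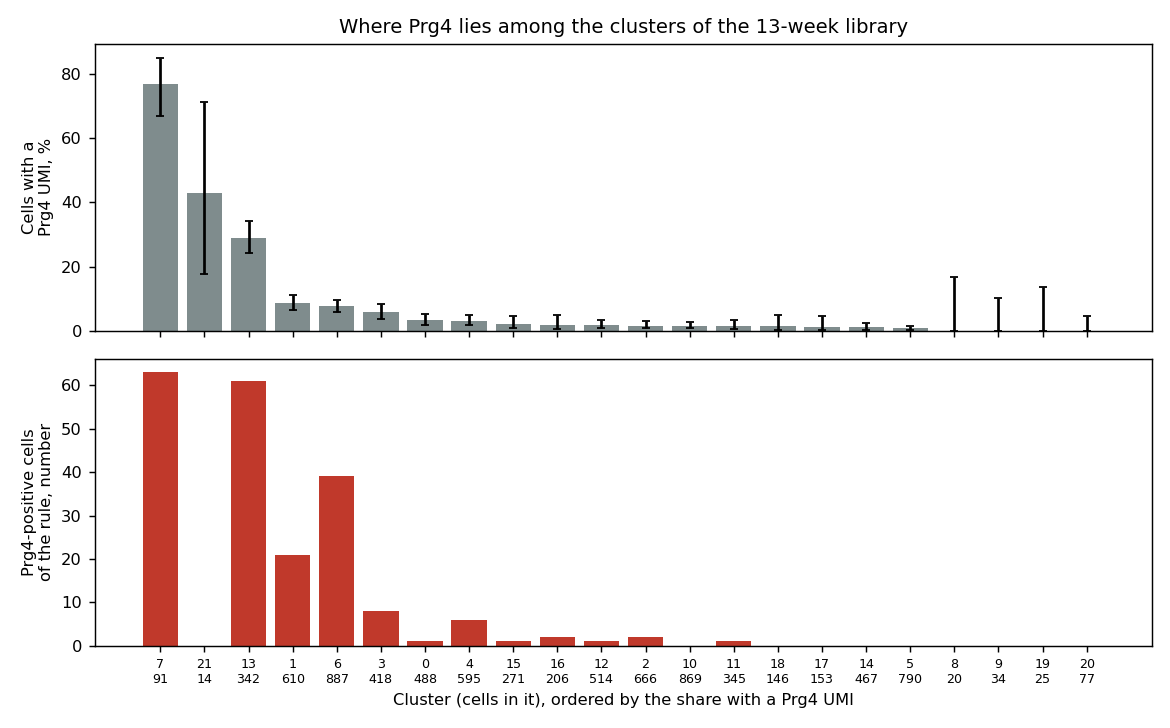
Bars in the upper panel give the percent of cells with at least 1 Prg4 UMI in each of 22 clusters of the 13-week library, with 95% exact binomial intervals, and bars in the lower panel the number of Prg4-positive cells of the rule. Cluster 7 has the highest share, 76.9%, and clusters 7 and 13 hold 63 and 61 of the 206 cells.

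Clustering all kept cells of the library into 22 clusters spread the Prg4-positive cells over several of them, as the plot of clusters shows. Cluster 7, 91 cells led by Slurp1, Clec3b, Prg4, Myoc and Tnxb, held 63 of the 206 cells. Cluster 13, 342 cells led by Sfrp2, Mfap4, Mdk and Ogn, held 61 cells. Cluster 6, 887 cells led by Igfbp5, S100a5 and Gpnmb, held 39, and cluster 1, 610 cells led by Has1, Cxcl1 and Cilp, held 21. Prg4 made up 2862 CPM of the members in cluster 7, 1270 CPM in cluster 13, 1039 CPM in cluster 1 and 822 CPM in cluster 6. These clusters were made from the same cells and genes, so their leading genes are a description.

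Members in the clusters led by Slurp1 and by Sfrp2 had different companions of Prg4. In cluster 7 the members had 1262 CPM of Slurp1 and 770 CPM of Clec3b, and little Sfrp2. In cluster 13 the members had 0 UMIs of Slurp1, 2.41 CPM of Clec3b and 1893 CPM of Sfrp2. Thbs4 was present in both, at 930 CPM and 1441 CPM, and so was Abi3bp, at 1413 CPM and 1550 CPM. Mfap4, a microfibril protein, was at 20.6 CPM and 777 CPM, and Ptgfr, the receptor for prostaglandin F2 alpha, at 106 CPM and 389 CPM.

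Over the 22 clusters the genes whose level ranked most like Prg4 were Abi3bp (Spearman correlation 0.88), Cxcl14 (0.88), Thbs4 (0.85), Angptl1 (0.85), Sema3c (0.85), Sfrp1 (0.84), Cilp2 (0.83), Ltbp3 (0.83), Mmp3 (0.82) and Gsn (0.81). The clusters share 1 library and were built from these genes, so this ranking is a description. Slurp1 is not among the 10.

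**Figure D2:**
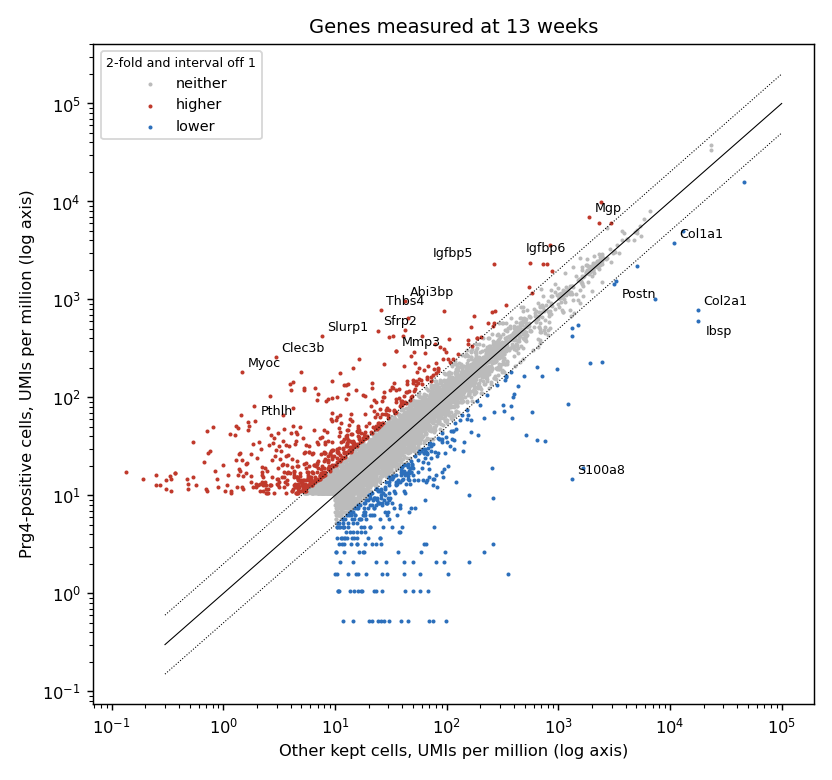
Each point is a gene measured at 10 or more CPM in either sum, with its level in the other kept cells on the horizontal log axis and its level in the Prg4-positive cells on the vertical log axis. The solid line marks equal levels and the dotted lines a 2-fold difference; Myoc, Clec3b and Slurp1 lie far above it, and Col2a1, Ibsp and S100a8 far below.

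For a comparison across genes, UMIs were summed over the cells of each set, a gene was measured at 10 or more CPM in the higher sum, and it was called higher or lower at a ratio of 2 or more whose counting interval excluded 1. Against the other kept cells, 592 of 8137 measured genes were higher (7.28%) and 401 were lower (4.93%). Leaving out cluster 1 of the members (46 cells with the most high doublet scores, described further on), an alternative chosen after seeing the data, gave 914 and 718. The other kept cells include blood cells and chondrocytes, so 2 closer sets were used as well. Against 5258 cells with 0 Prg4 UMIs and the same exclusions, 438 of 8117 genes were higher (5.4%) and 282 lower (3.47%), or 719 and 672 without those 46 members. This set still held neutrophil RNA, with neutrophil markers summing to 749 CPM against 41.6 CPM in the members, so its lower genes include blood genes. Against 1246 chondrocytes with 3 or more Col9a1 UMIs per 10000, 1409 of 8057 genes were higher (17.5%) and 466 lower (5.78%), or, for the lower genes, 747 without those members. Under median-of-ratios scaling the chondrocyte comparison gave 913 higher and 792 lower, so that 53.5% of calls were higher in place of 75.1%. In all 3 comparisons together 404 genes were higher and 126 lower. Median depth was 9827 UMIs in the Prg4-free cells and 24358.5 in the chondrocytes. With every cell thinned to 3000 UMIs the counts were 580 higher and 430 lower against other kept cells, 527 and 335 against Prg4-free cells, and 1463 and 566 against chondrocytes, each within 1.5 times the unthinned count.

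The highest ratios against the other kept cells belonged to secreted and matrix genes, several of them in few cells. Myoc, which encodes the secreted protein myocilin, had 180 CPM against 1.48 CPM, and 10 cells held 72.5% of its UMIs. Clec3b, the fibroblast gene for tetranectin, had 257 CPM against 2.98 CPM, in 19.9% of cells against 0.473%. Tnxb, a tenascin of elastic connective tissue, had 103 CPM against 2.63 CPM. Ptgfr had 136 CPM against 3.96 CPM and was in 40.3% of cells against 2.90%. Dio2, the deiodinase that activates thyroid hormone, had 145 CPM against 4.21 CPM. These 5 genes were well above the other kept cells, yet none was found in as many as 1 in every 2 members.

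Thbs4 and Abi3bp were the broadly shared ones. Thbs4, a thrombospondin of tendon and other matrix under load, had 777 CPM (738 to 818) against 25.6 CPM. It was in 70.9% of members and 11.1% of the others, and in 61.1% and 6.12% once every cell was thinned to 3000 UMIs (203 members and 7504 others, with 3 and 318 shallower cells left out). Abi3bp, an extracellular matrix protein that binds cell surfaces, had 962 CPM (918 to 1007) against 42.3 CPM, in 80.6% of members and 24.7% of the others (66.0% and 11.0% thinned). In the blood and endothelial cells 3.68% had a Thbs4 UMI and 4.37% an Abi3bp UMI. For both genes the members' share lay far above that in the blood and endothelial cells. The part of RNA free in the droplets was not tested.

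The rest of the 15 highest genes were Mfap4, Col14a1, Crabp1, Fbn1, Sfrp2, Ltbp1, Col8a1 and Slurp1 with the 7 named above. Fbn1, the fibrillin of microfibrils, had 118 CPM against 5.28 CPM, in 41.3% of cells against 4.83%. Ltbp1, which holds latent TGF-beta on microfibrils, had 126 CPM against 6.55 CPM, in 46.1% against 5.94%. Sfrp2, a secreted Wnt modulator, had 482 CPM against 24.1 CPM, in 29.1% against 4.18%. Over the 10 alternatives run on them, all 15 stayed at a log2 ratio of 3.37 or more. Against Prg4-free cells 14 of the 15 were again among the 15 highest, with Lbp, the gene for lipopolysaccharide binding protein (108 CPM against 6.81 CPM), in place of Col8a1.

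Bases before the annotated start are shown for 3 genes high in these cells because each holds a classical signal-response motif there. These are Mmp3 and Tnxb for AP-1 (TGANTCA), and Dio2 for the cAMP response element (TGACGTCA). For Tnxb the bases from the annotated start on open with ATG, so the stretch shown may not be promoter. The true start of its RNA was not checked. Sequences are the 120 bases before the annotated start, 5′ to 3′ on the gene's strand, from RefSeq on GRCm38.p6, and capitals mark every match found (the TATA box TATAAA, the GC box GGGCGG and the TEAD motif GGAATG were also searched, all on both strands).
Mmp3, chr9:7445702-7445821, plus strand: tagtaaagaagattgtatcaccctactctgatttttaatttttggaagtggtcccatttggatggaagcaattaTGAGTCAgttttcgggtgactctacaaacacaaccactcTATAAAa
Tnxb, chr17:34670415-34670534, plus strand: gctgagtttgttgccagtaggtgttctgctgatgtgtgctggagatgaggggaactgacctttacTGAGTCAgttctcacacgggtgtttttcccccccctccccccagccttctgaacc
Dio2, chr12:90739039-90739158, minus strand: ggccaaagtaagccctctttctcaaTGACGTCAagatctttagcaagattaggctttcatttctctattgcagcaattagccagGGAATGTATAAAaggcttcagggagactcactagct
In Dio2 the TEAD and TATA matches lie side by side and share no base. Of 19 genes looked up (the 5 markers and the 15 highest genes, with Slurp1 in both), 13 had a promoter in the RefSeq table. In windows of 300 bases, 2 of the 13 genes held the AP-1 motif, which 7.81% of all 32851 promoters in the table hold. The cAMP response element was in 2 of the 13 and in 1.79% of all, TATAAA in 4 and 13.6%, GGGCGG in 5 and 35.7%, and GGAATG in 4 and 14.7%. A match is a description of letters and not a site of binding. The 3 genes shown differed in their cells: among the clusters of Prg4-positive cells described further on, Mmp3 was highest in cluster 6, Dio2 in cluster 2 and Tnxb in cluster 0.

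**Figure D3:**
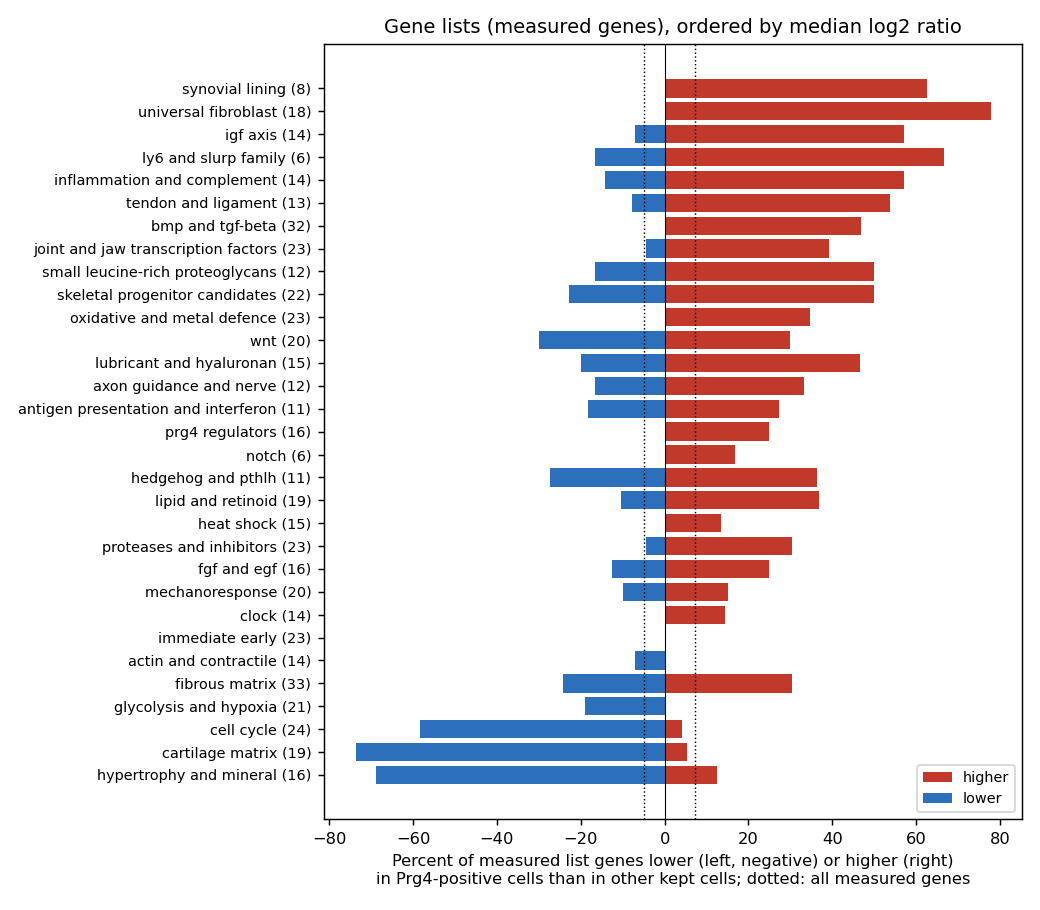
Bars give the percent of measured genes of each list that were higher (right) or lower (left, negative) in Prg4-positive cells than in other kept cells, with the number of measured genes in brackets and dotted lines at the share over all measured genes. Universal fibroblast genes lie furthest right, at 14 of 18 higher, and the cartilage matrix, hypertrophy and cell cycle lists lie on the left.

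Lists of genes with known roles were counted in the same way, beside a median log2 ratio of 0.13 over all genes measured against the other kept cells. The lubricant and hyaluronan list, without Prg4, had 7 of 15 measured genes higher and 3 lower, with a median of 0.55. Clu, the secreted chaperone clusterin, had 262 CPM against 47.5 CPM, and Cilp, an intermediate-layer cartilage protein that binds TGF-beta, had 642 CPM against 44.8 CPM. Has1, a hyaluronan synthase, had 46.8 CPM against 12.7 CPM, while the hyaluronan receptor Cd44 had 210 CPM against 199 CPM and was called neither. Cemip, which breaks down hyaluronan, and the link protein Hapln1 were lower.

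Genes that act on Prg4 in other joints, from the list of such regulators, showed 4 of 16 measured genes higher and none lower, with a median of 0.46. The 4 were Creb5, a transcription factor of the joint surface (193 CPM against 76.6 CPM), the TGF-beta receptors Tgfbr1 (67.3 against 28.7 CPM) and Tgfbr2 (94.7 against 47.1 CPM), and Egfr (31.0 against 14.3 CPM). Without cluster 1 of the members 5 were higher and 3 lower. Against Prg4-free cells the 3 called higher were Tgfbr1, the joint surface factor Erg and the EGF receptor ligand Hbegf. Foxo1 and Foxo3 were at 48.9 and 25.8 CPM against 29.2 and 25.5 CPM and were called neither.

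The IGF axis had 8 of 14 measured genes higher and 1 lower (median log2 ratio 1.90). Beside Igfbp5 and Igfbp6 these were the growth factors Igf1 (427 CPM against 32.8 CPM) and Igf2 (15.8 against 4.84 CPM), the binding proteins Igfbp3 (93.1 against 6.93 CPM) and Igfbp4 (354 against 78.6 CPM), and the proteases that cut IGF binding proteins, Pappa (16.8 against 3.95 CPM) and Pappa2 (45.8 against 0.710 CPM). The receptor Igf1r did not follow them, at 75.8 CPM against 87.1 CPM. Stc2, which inhibits those proteases, was lower, at 4.21 CPM against 37.5 CPM. Igf2r, Igfbp7, Insr and Htra1 were also called neither. Without cluster 1 Pappa was at 8.63 CPM, under the 10 CPM limit, and 7 of 13 genes were higher.

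In the BMP and TGF-beta list 15 of 32 measured genes were higher and none lower (median 0.86). Ligands were Bmp4 (42.1 CPM against 4.57 CPM), Bmp5 (32.1 against 3.86 CPM), Gdf10 (28.9 against 9.67 CPM) and Tgfb3 (98.9 against 37.2 CPM), while Bmp2, Tgfb1 and Tgfb2 were called neither. Without cluster 1 of the members Bmp2 (50.2 CPM) and Tgfb1 (72.2 CPM) were lower, and the list had 14 of 30 higher and 5 lower. Tgfbr3, the co-receptor betaglycan, was at 57.3 CPM against 9.32 CPM. The latent TGF-beta binding proteins Ltbp1, Ltbp3 and Ltbp4 were all higher, and the antagonists Fst, Chrd and Chrdl2 were higher too (Chrd at 8.63 CPM, under the limit, without cluster 1). Id1, Id2 and Id3, common targets of BMP signalling, were called neither.

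The Wnt list was mixed, with 6 of 20 genes higher and 6 lower (median 0.56). Higher were the ligand Wnt16 (50.5 CPM against 1.71 CPM), the modulators Dkk2 (46.3 against 1.65 CPM), Sfrp1 (124 against 21.2 CPM) and Sfrp2, the receptor Lgr5 (18.4 against 1.37 CPM) and the feedback inhibitor Nkd1. Lower were the ligands Wnt4 and Wnt5b, the inhibitors Dkk1 and Frzb, and the receptors Lgr6 and Fzd9. In the hedgehog and Pthlh list, Pthlh, the secreted hormone that holds back chondrocyte maturation, had 57.9 CPM against 1.91 CPM, and its receptor Pth1r had 193 CPM against 970 CPM. The hedgehog co-receptors Gas1 (421 against 40.4 CPM), Cdon (128 against 32.6 CPM) and Boc (44.7 against 16.2 CPM) were higher, whereas Ptch1 and the ligand Ihh were lower and Gli1 was called neither. In the hedgehog and Pthlh list as a whole 4 of 11 were higher and 3 lower (median 0.44).

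Matrix genes split by kind. In the fibrous matrix list 10 of 33 genes were higher and 8 lower (median -0.13). The microfibril and elastic fibre genes Fbn1, Eln (21.0 CPM against 3.43 CPM), Fbln1 (69.4 against 9.45 CPM), Fbln2 (91.0 against 8.28 CPM), Fbln5 (44.2 against 4.48 CPM), Mfap4 and Mfap5 were higher, as were Col14a1 and Tnxb, which space collagen fibrils, and the crosslinking enzyme Loxl1. The main fibrillar collagens were lower, with Col1a1 at 3774 CPM against 10849 CPM and Col1a2 at 5005 CPM against 12996 CPM, and so were Sparc, Postn, Lox, Loxl3, Loxl4 and Pcolce2. Col3a1 was at 4884 CPM against 4829 CPM and called neither. Without cluster 1 of the members 11 were higher and 15 lower. Against Prg4-free cells Col1a1, Col1a2, Sparc, Postn, Lox and Loxl4 were also lower.

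Small leucine-rich proteoglycans, which bind collagen fibrils, had 6 of 12 higher and 2 lower (median 0.85). Dcn, decorin, was found in all 206 cells at 9926 CPM against 2409 CPM, and Ogn (482 against 42.7 CPM), Kera (51.6 against 4.16 CPM), Aspn (2281 against 794 CPM), Prelp (1174 against 580 CPM) and Podn were higher. Omd and Chad were lower. In the tendon and ligament list 7 of 13 were higher and 1 lower (median 1.14), among them the tendon transcription factor Scx (185 CPM against 84.2 CPM), Thbs4, Kera, and Tnmd and Chodl at low levels (15.8 and 12.6 CPM).

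Cartilage matrix genes were low. Of 19 measured, 14 were lower and 1 higher (median -1.65). Col2a1, the main collagen of cartilage, had 774 CPM against 17661 CPM, Acan, aggrecan, had 551 CPM against 1491 CPM, and Matn3, with 2 UMIs in all, had 1.05 CPM against 68.5 CPM. Since the rule left out cells with Col9a1, low levels of its partners follow the choice of cells in part. Low levels were shared with 2006 Prg4-free cells of the same exclusions with 2 or more Dpt and fewer than 2 Cilp2 UMIs. In those the list summed to 4687 CPM and Col2a1 had 821 CPM, against 6217 CPM and 774 CPM in the members. In 1940 Prg4-free cells with 2 or more Cilp2 UMIs the values were 13396.5 CPM and 3571 CPM. The gene called higher was Cytl1, at 245 CPM against 114 CPM, but cluster 1 of the members held 68.6% of its UMIs and cluster 4 31.0%. Without cluster 1 Cytl1 was at 115 CPM and called neither, and the list had 16 of 19 lower. Genes of hypertrophy and mineral had 11 of 16 lower and 2 higher (median -2.24), with Ibsp at 605 CPM against 17954 CPM, Col10a1 at 36.8 CPM against 643 CPM and Spp1 at 1016 CPM against 7318 CPM. The 2 higher were inhibitors of mineral deposition, Mgp (6950 CPM against 1881 CPM) and Ank (170 against 75.9 CPM). In the sets with Dpt and with Cilp2 UMIs Ibsp was at 744 CPM and 3630 CPM.

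Col2a1, Ibsp and Spp1 were found in no larger a share of the Prg4-positive cells than of blood and endothelial cells of the same library. Of the 206 cells, 92.7% had a Col2a1 UMI, 83.0% an Ibsp UMI and 77.7% an Spp1 UMI. Of the 435 blood and endothelial cells, 92.6%, 85.5% and 78.6% did, at 2854 CPM, 2425 CPM and 1268 CPM. Whether the Col2a1 and Ibsp UMIs of the members are background was not tested. They were uneven, with 59.9% of the Col2a1 and 63.9% of the Ibsp UMIs in 10 members. Without cluster 1 of the members Col2a1 was at 656 CPM and Ibsp at 265 CPM. Spp1 was uneven, at 2446 CPM in cluster 1 of the members, which held 79.3% of its UMIs, and at 314 CPM in the rest. Acan (58.3% of Prg4-positive cells against 33.3% of blood and endothelial cells) and Sox9 (59.7% against 26.4%) were above the share in blood and endothelial cells, while Snorc (33.5% against 30.1%) and Col9a2 (19.4% against 23.4%) were close to it. For Mgp and Dcn the shares were 95.1% and 100% in Prg4-positive cells against 39.3% and 42.3% in the blood and endothelial cells.

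Of the 31 lists, the universal fibroblast genes had the largest share of higher members. Of 18 measured genes 14 were higher and none lower (median 2.56), and 14 were higher against Prg4-free cells. Without cluster 1 of the members 18 of 19 were higher. The list was uneven, summing to 16747 CPM in cluster 0 of the members (24 cells) and 4299 CPM over the other members. In Prg4-free cells it summed to 2145 CPM. They included the stem and adventitial markers Pi16 (23.1 CPM against 1.47 CPM), Cd34 (135 against 11.9 CPM), Ly6a (300 against 34.9 CPM) and Clec3b, the growth factor receptor Pdgfra (140 against 33.5 CPM), the transcription factors Ebf1 (107 against 13.0 CPM) and Ebf2, and the actin-severing protein Gsn (3564 against 845 CPM). Synovial lining genes had 5 of 8 higher and none lower (median 2.77), with Cd55 at 101 CPM against 10.4 CPM, Htra4 at 50.5 CPM against 1.29 CPM and Pdpn at 33.7 CPM against 7.02 CPM. Of the 6 fixed markers of lining fibroblasts, Clic5 (3 UMIs), Tspan15 (5 UMIs) and Vcam1 (11 UMIs) did not reach 10 CPM in either sum. The progenitor candidates had 11 of 22 higher and 5 lower (median 0.68), with Procr, an endothelial protein C receptor used to mark stem cells, at 49.4 CPM against 0.809 CPM and Lepr at 14.7 CPM against 0.872 CPM, while Cd200, Acta2 and Fgfr3 were lower.

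Among the joint and jaw transcription factors 9 of 23 were higher and 1 lower (median 0.86). Prrx1, a factor of limb and face mesenchyme, had 670 CPM against 176 CPM in 96.1% of members and 75.9% of the others. Nr2f1 (41.0 CPM against 1.27 CPM), Meox2 (47.9 against 3.47 CPM), Osr1 (26.3 against 6.20 CPM), Msx1 (19.5 against 4.08 CPM), Dlx6 (52.1 against 13.5 CPM) and Foxd1 were higher. Runx3, a factor of maturing chondrocytes, was lower, and Sox9, the master factor of cartilage, was called neither at 465 CPM against 698 CPM. Cluster 1 of the members held 75.8% of the Sox9 UMIs, and without it Sox9 was at 168 CPM and called lower. Without it the list had 13 of 26 higher and 3 lower.

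Proteases and inhibitors had 7 of 23 higher and 1 lower (median 0.28), with Mmp3, Ctsl (524 CPM against 164 CPM), Adamts2 and Serpina3n among the higher and Mmp2, Timp1, Timp2 and Timp3 called neither. Without cluster 1 of the members 8 of 24 were higher and 4 lower, Timp1 (334 CPM) among the lower. In the inflammation and complement list 8 of 14 were higher and 2 lower (median 1.35). Among the higher were the complement regulators Serping1 (244 CPM against 16.4 CPM) and Cd55, the complement components C3 and C1s1, and the chemokines Cxcl12, Cxcl14 and Ccl19. The antioxidant list had 8 of 23 higher and none lower (median 0.64), led in level by Fth1 (5973 against 2938 CPM), the extracellular superoxide dismutase Sod3 (411 against 30.6 CPM) and Gstm1 (139 against 21.4 CPM). Glycolysis genes had 4 of 21 lower and none higher (median -0.56), with Pgk1 at 166 CPM against 340 CPM, and 14 of 22 lower without cluster 1 of the members.

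Genes that respond to dissociation stress and load were counted beside shares over all measured genes of 7.28% higher and 4.93% lower. Immediate early genes had 0 of 23 higher and 0 lower (median 0.06), or 4 lower without cluster 1 of the members, heat shock genes 2 of 15 higher (Hspb8 and Cryab, median 0.32), and the actin list 1 of 14 lower (Acta2, median 0.03). Mechanoresponse genes had 3 of 20 higher (Ccn3, Ccn5 and Kcnk2) and 2 lower (median 0.18), with the channel Piezo1 at 55.8 CPM against 53.7 CPM and the channel Trpv4 lower. The medians of the immediate early, actin, mechanoresponse, clock, FGF and EGF, and antigen presentation lists changed sign under at least 1 alternative. The Notch list had 1 of 6 higher and none lower (median 0.45), the clock list 2 of 14 and none (0.17), the FGF and EGF list 4 of 16 and 2 (0.21, or 5 and 6 without cluster 1), the lipid and retinoid list 7 of 19 and 2 (0.33), the axon guidance list 4 of 12 and 2 (0.49), the Ly6 and Slurp family 4 of 6 and 1 (1.57), and antigen presentation 3 of 11 and 2 (0.49).

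More cell cycle genes were lower than higher in the Prg4-positive cells, although the whole list summed to 1919 CPM against 2266 CPM in the other kept cells. Of 24 measured cell cycle genes 14 were lower and 1, Ccnd2, higher (median -1.20). With every cell thinned to 3000 UMIs, 6 of 203 members had a UMI of Mki67 or Top2a (2.96%, 1.09% to 6.32%), against 8.93% of 7504 other kept cells and 8.85% of 5061 Prg4-free cells. Unthinned shares were 5.34% in members and 14.0% in the others. Among the clusters of Prg4-positive cells described further on, Top2a (134 CPM) and Mki67 (105 CPM) were highest in cluster 1.

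Markers of blood, endothelium, muscle, fat and epithelium were low in the Prg4-positive cells. Summed over each marker list, they held 3.16 CPM of endothelial, 1.58 of mast cell, 1.05 of T and NK cell, 1.05 of B cell, 3.68 of erythroid, 1.05 of muscle, 1.05 of adipocyte and 0 of epithelial markers. Monocyte and macrophage markers summed to 16.8 CPM against 256 CPM in the other kept cells, and neutrophil markers to 41.6 CPM against 3927 CPM, of which S100a8 had 14.7 CPM and S100a9 18.9 CPM. Mural markers summed to 165 CPM against 277 CPM, and glial markers to 16.3 CPM against 16.9 CPM. Osteoclast markers summed to 353 CPM against 335 CPM, nearly all of it Ctsk (339 CPM). Osteoblast markers without the genes of the rule summed to 3804 CPM against 10966 CPM, nearly all of it Col1a1, chondrocyte markers to 2146 CPM against 25485 CPM, and hypertrophic markers to 848 CPM against 19276 CPM. The markers of fibroblasts (715 CPM against 56.6 CPM), tendon (1052 against 119 CPM), lining fibroblasts (238 against 55.8 CPM) and superficial fibrocartilage (3323 against 497 CPM, without Prg4) summed to more than in the other kept cells, as did the 4 given markers (5373 against 862 CPM). Thbs4 is in both the tendon and the superficial fibrocartilage markers, and it alone was at 777 CPM against 25.6 CPM. The wider tendon and ligament list summed to 8911 CPM against 10938 CPM. The marker sums were uneven over the member clusters described further on. Fibroblast markers summed to 2667 CPM in cluster 0 and 1405 CPM in cluster 3, and to between 104 and 471 CPM in the rest. Lining fibroblast markers summed to 1031 CPM in cluster 4 and 581 CPM in cluster 3, and to between 38.4 and 186 CPM in the rest. The lower genes against all other kept cells include blood genes such as Camp, S100a8, S100a9, Ngp, Lyz2 and Retnlg, and the rule left out cells with Ptprc, the pan-leukocyte gene.

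Against the closer set of Prg4-free cells the lowest genes were the neutrophil genes S100a8 (14.7 CPM against 253 CPM) and S100a9 (18.9 against 286 CPM). Next came Col10a1 (36.8 CPM against 420 CPM), Ibsp (605 against 5843 CPM) and the dividing-cell genes Ube2c, Cenpf and Hist1h1b. Col2a1 (774 against 3351 CPM), the contractile gene Acta2 (58.9 against 242 CPM) and C1qtnf3 (71.0 against 282 CPM) followed. Against the Col9a1-positive chondrocytes the lowest were Matn3, Mia, Cnmd, R3hdml, F13a1, Ibsp, Ucma, Panx3, Col2a1 and Col9a2, most of them genes of cartilage matrix or its maturation. Mia was at 1.58 CPM, from 3 UMIs, against 210 CPM, and Cnmd, chondromodulin, at 2.10 CPM against 227 CPM. The 10 genes highest against chondrocytes were all among the 15 highest against the other kept cells.

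**Figure D4:**
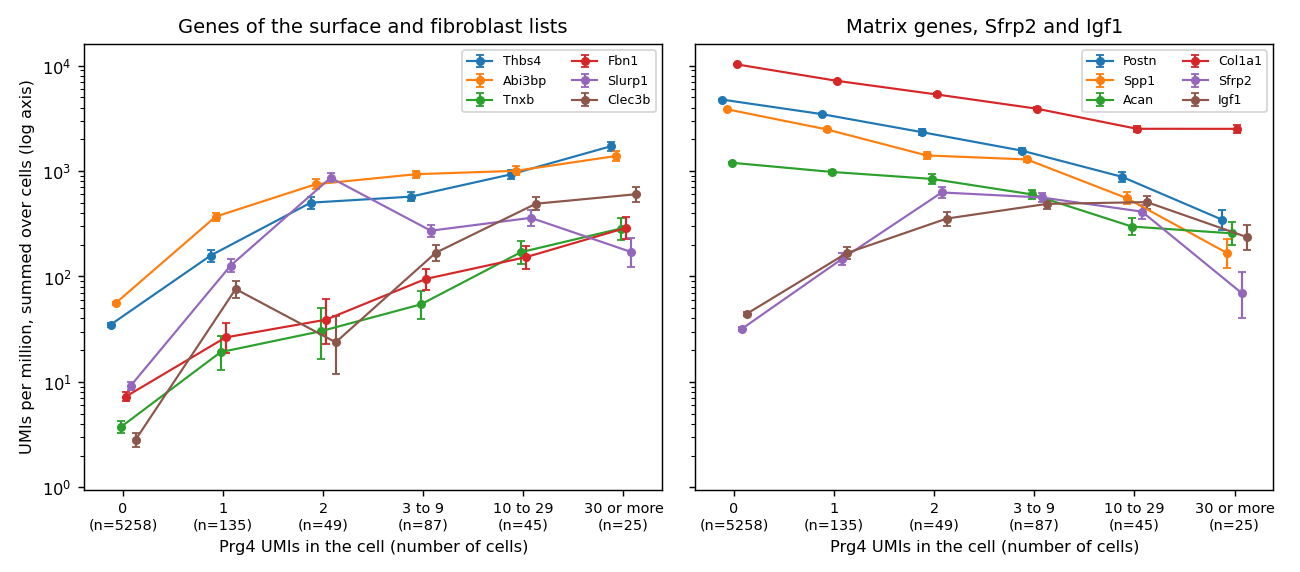
Summed CPM on a log axis are plotted for 12 genes over classes of cells by their own Prg4 UMIs, with the number of cells under each class and 95% exact Poisson intervals. With all members, Thbs4, Tnxb and Fbn1 are higher in each class than in the one before and Postn, Spp1 and Acan lower; without cluster 1 of the members this order is broken for Thbs4, Spp1 and Acan.

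Within the cells of the same exclusions, several genes were graded with the Prg4 UMIs of the cell, as the plot of Prg4 classes shows. The classes were 0 (5258 cells), 1 (135), 2 (49), 3 to 9 (87), 10 to 29 (45) and 30 or more UMIs (25), with median depths of 9827, 8728, 8104, 6936, 8024 and 9388 UMIs. Thbs4 was at 34.8, 158, 501, 571, 929 and 1717 CPM from the first class to the last. Tnxb was at 3.72, 19.2, 30.2, 54.3, 170 and 285 CPM, and Fbn1 at 7.23, 26.4, 38.9, 94.7, 152 and 289 CPM. These 3 genes were higher in every next class, but counting intervals of some neighbouring classes overlapped. From 1 to 2 UMIs these were 12.8 to 27.5 and 16.5 to 50.7 CPM for Tnxb, and 18.9 to 36.0 and 23.0 to 61.4 CPM for Fbn1. For Thbs4 they were 438 to 570 CPM at 2 UMIs and 520 to 626 CPM at 3 to 9. The classes are cut on the Prg4 UMIs that also chose the members, and the genes were named after their values were seen, so the order is a description with no test. Without cluster 1 Thbs4 was at 901, 863, 1078 and 1832 CPM in the 4 classes of members, so its order held only from the 3 to 9 class on.

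Postn, a matricellular protein of periosteum and ligament, went the other way, at 4763, 3466, 2338, 1560, 882 and 346 CPM. Spp1 was at 3858, 2481, 1405, 1287, 552 and 167 CPM, and Acan at 1198, 980, 842, 600, 297 and 256 CPM. Cluster 1, with 17, 21, 6 and 2 cells in the 4 classes of members, held 77.5% of the members' Postn, 79.3% of their Spp1 and 74.0% of their Acan UMIs. Without it Postn was at 772, 647, 291 and 107 CPM in those classes, and Spp1 (487, 398, 149 and 179 CPM) and Acan (431, 189, 91.6 and 215 CPM) were no longer lower in the last class than in the one before. Other genes peaked between. Sfrp2 was at 31.7, 146, 626, 561, 412 and 69.2 CPM, and Igf1 at 44.1, 166, 354, 488, 507 and 236 CPM. Igfbp6 was at 774 CPM without Prg4 and between 2171 and 2506 CPM in the 4 classes of members. Cilp was at 212, 547 and 400 CPM in the first 3 classes of members and at 2157 CPM in the cells with 30 or more Prg4 UMIs.

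**Figure D5:**
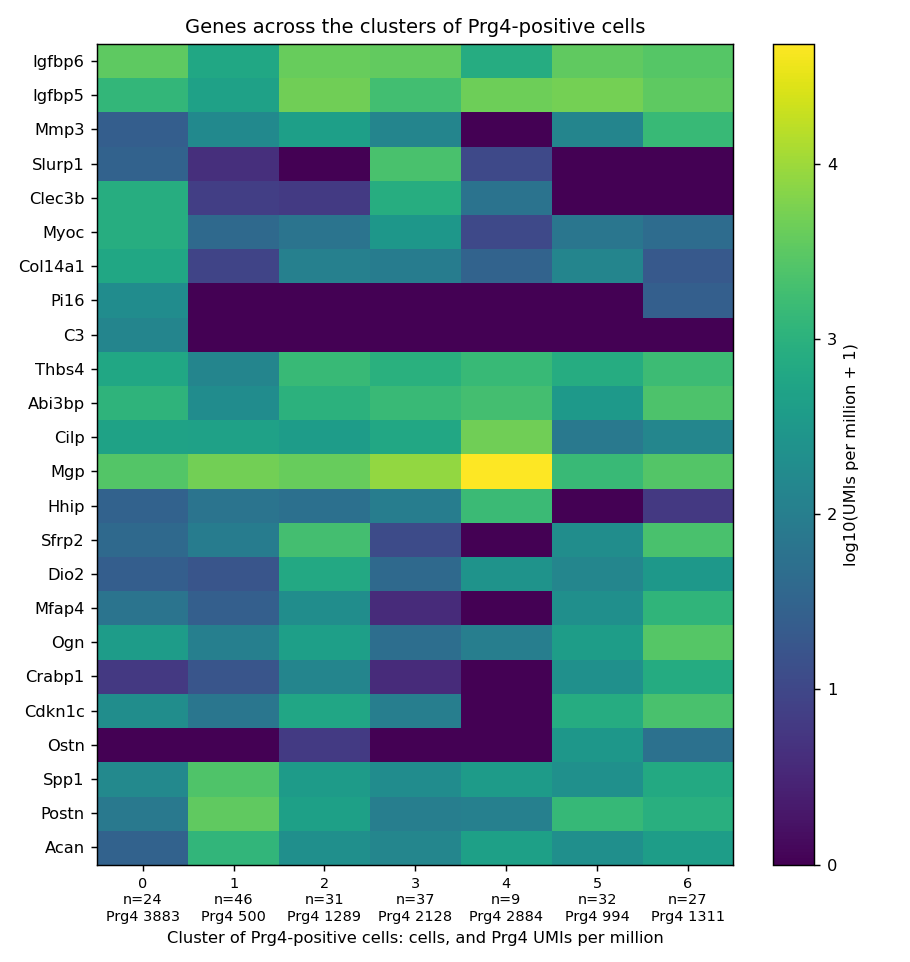
Colour gives log10(CPM + 1) for 24 genes (rows) in the 7 clusters of the 206 Prg4-positive cells (columns), with the number of cells and the Prg4 level under each. Slurp1 is highest in cluster 3, Pi16 and C3 in cluster 0, Hhip and Mgp in cluster 4, and Postn, Spp1 and Acan in cluster 1.

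Clustered among themselves, the 206 cells fell into 7 clusters, which are named by number and by leading genes only. They come from 1 library and from the genes shown, so no test was made. Cluster 0 (24 cells) held 27.4% of the group's Prg4 UMIs at 3883 CPM, with a median of 23 UMIs per cell. All 24 of its cells lay in cluster 7 of the library. Its leading genes were Cxcl12 (444 CPM), the complement inhibitor Serping1 (1255 CPM), Fgl2, Col14a1 (630 CPM), Ccn5, Rarres2, Pi16 (190 CPM) and Myoc (840 CPM), and C3 was found at 132 CPM there and at 0 UMIs in the other 6 clusters. Pi16 and Col14a1 are known from fibroblasts around vessels, and Tnxb (283 CPM) and Fbn1 (308 CPM) were also highest here.

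Cluster 3 (37 cells, 2128 CPM of Prg4, 26.9% of its UMIs) was led by Slurp1 (2161 CPM), Cd55 (409 CPM), Sbsn (1953 CPM), Procr (224 CPM), Crabp2 (177 CPM), Tppp3 (1700 CPM), Clec3b (840 CPM) and Krt16 (142 CPM). Sbsn, Krt16, Dmkn (248 CPM) and the water channel Aqp5 (84.6 CPM) are better known from epithelia. Krt16 and Aqp5 were each found in 3 of the 37 cells and Dmkn in 6, whereas Sbsn was in 25, and the epithelial marker list was at 0 UMIs in all members. Slurp1 was at 29.3 CPM or below in every other cluster. Of the 206 cells, 17 had at least 2 Slurp1 UMIs, and 13 of these also had at least 2 of Cd55 and 10 at least 2 of Clec3b, while 1 had at least 2 of Sfrp2 and 0 of Pi16.

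Cluster 4 was small, with 9 cells and 2884 CPM of Prg4. It was led by the hedgehog inhibitor Hhip (1552 CPM), Tesc, the BMP antagonist Chrdl2 (310 CPM), Mgp (48502 CPM), Cilp (4616 CPM), Htra4 (511 CPM), Cytl1 (1442 CPM), Hbegf (461 CPM) and Clu (1172 CPM). Its Mgp level lay far above that of the other clusters, which ranged from 1522 to 8501 CPM. Creb5 was at 531 CPM here, its highest level, and at 24.7 CPM in cluster 6, its lowest.

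Clusters 2, 5 and 6 lay in library clusters 13 and 6 in full. Cluster 6 (27 cells, 1311 CPM of Prg4) was led by Mfap4 (1143 CPM), Ogn (2820 CPM), Crabp1 (767 CPM), the cell cycle inhibitor Cdkn1c (2226 CPM), Mmp3 (1459 CPM), Pappa2 (302 CPM), Sfrp2 (2152 CPM) and Igf1 (1672 CPM). Cluster 2 (31 cells, 1289 CPM) was led by Dio2 (662 CPM), Angptl7 (274 CPM), Sfrp2 (1920 CPM), Gsta4 and Fibin (2443 CPM). Cluster 5 (32 cells, 994 CPM) was led by Ostn (307 CPM), Ptprd (504 CPM), Aldh1a3 (874 CPM), S100a5 and the growth factor Ptn (6559 CPM), with Igfbp5 at 5142 CPM. Median depths were 5189, 6450.5 and 5767 UMIs in clusters 2, 5 and 6, and 8154.5, 9388 and 10461 in clusters 0, 3 and 4. The part of depth in these clusters was not tested.

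Cluster 1 stood apart. Its 46 cells had a median of 12886 UMIs and 7 of the 8 high doublet scores of the group, and Prg4 was lowest there, at 500 CPM with a median of 3 UMIs. Leading genes were the histone Hist1h2ap (463 CPM), Snorc, Spp1 (2446 CPM), the inflammation-induced hyaluronan binding protein Tnfaip6 (781 CPM), Postn (3411 CPM), Sox9 (1070 CPM) and Acan (1238 CPM). Igfbp6 (629 CPM), Igfbp5 (476 CPM), Thbs4 (134 CPM) and Abi3bp (188 CPM) were at their lowest in this cluster. Its cells lay in 12 library clusters, 20 of them in cluster 1. The part of doublets in it was not tested. Without these 46 cells all 15 highest genes had a larger log2 ratio, for example 5.42 in place of 4.93 for Thbs4.

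The same rule found few cells in the younger libraries, 13 of 4562 kept cells at E16.5 (0.285%, 0.152% to 0.487%) and 54 of 3999 at P0 (1.35%, 1.02% to 1.76%). The median kept cell held 17401.5 UMIs at E16.5, 17954 at P0 and 11010 at 13 weeks, and the libraries 103827875, 98486931 and 115836876 UMIs in all. The libraries are 1 pool per age, so age and library cannot be told apart. Prg4 in these cells was 371 CPM at E16.5, 500 CPM at P0 and 1524 CPM at 13 weeks. The rule sets these levels in part, as it asked for at least 2 Prg4 UMIs at every age. Cells of the rule had median depths of 11831, 11209 and 8083.5 UMIs. Of the 15 genes highest at 13 weeks, 10 were also higher than in the other cells of their own library at E16.5 and 10 at P0, and 0 were lower. Over all genes measured by the same rule, 12.3% were higher and 4.45% lower at E16.5, and 11.5% were higher and 12.1% lower at P0.

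Thbs4 was at 1291 CPM at E16.5, 299 CPM at P0 and 777 CPM at 13 weeks in the cells of the rule, and Abi3bp at 537, 127 and 962 CPM. Creb5 was at 281, 178 and 193 CPM. Igfbp6 was at 70.3, 130 and 2379 CPM, and Igfbp5 at 479, 848 and 2275 CPM. Mmp3 and Slurp1 had 0 UMIs in the cells of both younger libraries. From 13 cells a count of 0 leaves levels of up to 23.6 CPM possible, and from 54 cells up to 5.71 CPM, as the upper bounds of the Poisson interval. Myoc had 0 and 1 UMI, and Dio2 0 and 2. Tnmd, a marker of tendon, was at 703 CPM at E16.5 and had 0 UMIs at P0. Pthlh was at 70.3, 69.6 and 57.9 CPM. Among cells of the rule, Igfbp5 and Igfbp6 were thus found at all 3 ages, and Mmp3 and Slurp1 only at 13 weeks. The other kept cells also differed between E16.5, P0 and 13 weeks. There Igfbp6 was at 6.27, 18.1 and 555 CPM and Igfbp5 at 173, 105 and 265 CPM. Mmp3 was at 0.040, 0.043 and 35.3 CPM there and Slurp1 at 0, 0.054 and 7.67 CPM. Log2 ratios of the cells of the rule to these others were 3.49, 2.84 and 2.10 for Igfbp6 and 1.47, 3.01 and 3.10 for Igfbp5.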

How the data were processed

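Single-cell 3′ RNA of pooled condyles was counted at 3 ages, with 1 library each. The deposited matrices give raw counts of UMIs for every gene in every barcode, and their headers name Cell Ranger 6.1.2 as the counting software. The genome build is GRCm39 per the submitters' processing notes. No other column of per-sample values was used. The members and the 31 gene lists and 21 marker lists were chosen with earlier results of these data known.

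From the counts, cells were kept at 500 or more genes and at most 10% mitochondrial UMIs, and members were taken by the rule given above. UMIs were summed per set, with 95% exact Poisson intervals for sums, exact conditional binomial intervals for ratios and Clopper-Pearson intervals for shares, all covering counting error only. For a ratio against a sum of 0, 3 counts stood in for the 0. Genes named were the 15 highest and 10 lowest ratios at 100 or more CPM in the higher sum (10 and 10 against chondrocytes), genes of the lists whose role is explained, the 5 given markers and the 10 genes ranking most like Prg4. Genes of the rule and mitochondrial, ribosomal, haemoglobin, immunoglobulin, sex-linked marker and predicted genes were left out of these. C3, Aqp5, Krt16, Sbsn, Dmkn and other genes of the member clusters were chosen after their values were seen.

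All kept cells were clustered by Leiden at resolution 1, on 20 neighbours in 30 principal components of the 2000 most variable genes, and members at 0.8, on 15 neighbours in 15 components of 1500 genes (scanpy 1.11.5, igraph 0.11.9). Ratios and intervals were computed with Python 3.11.15, numpy 2.4.6 and scipy 1.17.1 and tested on simulated data. The simulated sums were Poisson counts, as the intervals assume. They check the computation only and hold no spread between cells. Doublets were scored with Scrublet and removed only in an alternative. Other alternatives changed the Prg4 minimum, the cell filters, the scaling, the CPM floor, the weight per cell and the depth.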

Additional observations from a re-analysis of the deposited data

How the results depend on the processing

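The share of Prg4-positive cells was 4.25% at 1 or more Prg4 UMIs and 1.96% at 3 or more. At 1 or more UMIs, 388 genes were higher than in the other kept cells, and 272 were higher and 147 lower than in Prg4-free cells. With a floor of 50 CPM the higher and lower counts were 192 and 140 against other kept cells, 139 and 89 against Prg4-free cells, and 466 and 231 against chondrocytes, since fewer genes were measured. With no floor they were 1349 and 641, 1080 and 460, and, for higher genes against chondrocytes, 2679. Median-of-ratios scaling moved all log2 ratios against the other kept cells by -0.13 and gave 913 higher and 792 lower genes against chondrocytes. Without the 46 cells of member cluster 1, an alternative chosen after seeing the data, the counts were 914 and 718, 719 and 672, and 747 lower against chondrocytes; the cause was not tested. The neutrophil gene Elane, with 1 UMI in the members, went from a log2 ratio of -7.16 to 0.95 at 1 or more Prg4 UMIs; the cause was not tested. Of 1240 values for 124 single genes under the alternatives, 840 moved by less than their counting interval, 399 moved by more and 1 changed sign. List medians changed sign in 15 of 410 values, in 6 of 41 lists. No paired analysis was possible because each age has 1 library. With 1 library per age and 206 cells, no difference between animals can be measured.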
